A study of Mus musculus with 3 samples.

Results

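The CCN family is a small set of secreted, cysteine-rich matricellular proteins, and its genes Ccn1, Ccn2, Ccn3, Ccn4 and Ccn5 (older names Cyr61, Ctgf, Nov, Wisp1 and Wisp2) were followed here by symbol, 5 of the 27179 genes in the deposited table. All 5 were matched through their gene identifiers. Mouse bone marrow stromal cells of wild-type genotype were grown at 3% oxygen and given extracellular vesicles for 3 days. For Ocn-EV the donors carried CAGS-Snorkel and Ocn-Cre, an osteocalcin driver used to target mature osteoblasts. For Prx1-EV the donors carried CAGS-Snorkel and Prx1-Cre, a driver that marks early limb bud mesenchyme and the skeletal stroma derived from it. For All-EV, the control, the donors were wild-type mice. Bone marrow plasma of 5 mice (2 males and 3 females, C57BL/6N, 6 months old) was pooled into 1 vesicle preparation per group, isolated with an HA antibody on magnetic beads. The sources used here are silent on how that capture acted on plasma of wild-type mice. Each group was 1 culture and 1 messenger RNA library, so the differences below were not checked in replicates and carry no p-value.

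CCN proteins sit in the pericellular matrix, where they bind integrins, heparan sulphate proteoglycans and growth factors rather than forming fibres. They are built from an insulin-like growth factor binding protein (IGFBP) module, a von Willebrand factor type C module, a thrombospondin repeat and a C-terminal cystine knot, which Ccn5 lacks. In mesenchymal cells Ccn1 and Ccn2 are immediate targets of the mechanosensitive coactivators YAP and TAZ and of TGF-beta, while Ccn4 and Ccn5 were first described as genes induced by Wnt. Ccn2 promotes matrix production and bone formation, and Ccn5 is known to oppose Ccn2 in several tissues.

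In GRCm38 the genes, each of 5 exons, lie at chr3:145646971-145649985 (Ccn1, minus strand), chr10:24595442-24598683 (Ccn2, plus), chr15:54745910-54753762 (Ccn3, plus), chr15:66891369-66923201 (Ccn4, plus) and chr2:163820752-163833146 (Ccn5, plus). Their coding sequences, from GENCODE M21, encode 379 (Ccn1), 348 (Ccn2), 354 (Ccn3), 367 (Ccn4) and 251 (Ccn5) residues, so Ccn5 is the shortest. The conserved IGFBP motif shows both what the members share and how reads tell them apart. Each stretch below is 30 bases of exonic coding sequence on the gene's own strand, with the 4 cysteine codons in capitals.
Ccn1, chr3:145649325-145649354, minus strand: ggcTGCggcTGCTGTaaggtcTGCgctaaa
Ccn2, chr10:24595966-24595995, plus strand: ggcTGCggcTGCTGCcgcgtcTGCgccaag
Ccn3, chr15:54746265-54746294, plus strand: ggcTGCtccTGCTGTccggtgTGCgcccgc
Ccn4, chr15:66906545-66906574, plus strand: ggcTGTgaaTGCTGTaagataTGTgcccag
Ccn5, chr2:163825225-163825254, plus strand: ggcTGTggcTGCTGTcgagtgTGTgcacgg
Even here, pairs of members matched at 19 to 24 of 30 bases. Over whole coding sequences the 10 pairs were 58.6% to 66.4% identical at aligned bases and shared 0 runs of 25 bases.

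Of the 5 members, the RefSeq promoter table (GRCm38.p6) matched Ccn1. Its 250 bases before the transcription start are shown because the gene is a standard readout of YAP and TAZ acting through TEAD factors, with a TEAD motif match and a TATA match in capitals.
Ccn1 promoter, chr3:145649986-145650235, minus strand: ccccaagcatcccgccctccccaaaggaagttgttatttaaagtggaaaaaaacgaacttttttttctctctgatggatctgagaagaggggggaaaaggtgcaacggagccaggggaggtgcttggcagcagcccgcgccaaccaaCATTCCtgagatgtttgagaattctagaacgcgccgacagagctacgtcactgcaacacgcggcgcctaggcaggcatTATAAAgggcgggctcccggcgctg
On both strands, the TEAD motif GGAATG matched 1 time, 103 bases before the start, and 12.6% of 32851 promoter windows of this length held it. The TATA motif TATAAA matched 1 time, 25 bases before the start (12.4% of windows). The core TGACG of the cyclic AMP response element matched 1 time, 58 bases before the start (17.8% of windows), while its full form TGACGTCA (1.55%) was not found. The letters of the AP-1 motif TGANTCA (6.75% of windows), the TCF/LEF motif CTTTGAT (3.21%) and the CArG box (1.47%) were not found in this window. No match overlapped another, and a match is a description of letters, not of binding.

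The libraries held 14233978 (Ocn-EV), 17269204 (Prx1-EV) and 15558165 (All-EV) reads assigned to genes. Levels below are the deposited normalised counts, which are reads divided by 1 factor per library. Bracketed ranges are 95% exact intervals that cover counting error only, since each group has 1 library. PCR copies cannot be told from separate molecules, so these intervals may be too narrow. Xist, the X-inactivation transcript, had a normalised count of 126 with Ocn-EV, 5.23 with Prx1-EV and 320.3 with All-EV, whereas the Y-linked gene Ddx3y stood at 1473 with Ocn-EV, 1671 with Prx1-EV and 1413 with All-EV. The libraries thus differed widely in Xist and little in Ddx3y, and the part of this in the CCN differences was not tested.

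On the deposited scale each of the 5 CCN genes had its highest value with Ocn-EV and its lowest with All-EV, Ccn3 on few reads. Relative to stromal markers the point values of Ccn1 and Ccn2 were lower with Ocn-EV than with Prx1-EV and than with All-EV. That of Ccn4 was marginally lower with Prx1-EV than with All-EV (log2 −0.04). No interval was calculated on the stromal scale, so the sign of values this near 0 is not settled. Ccn2 was by far the most abundant and Ccn3 was barely detected. The 5 genes together took 0.0868% (0.0852 to 0.0883) of reads with Ocn-EV, 0.0773% (0.0760 to 0.0787) with Prx1-EV and 0.0259% (0.0251 to 0.0267) with All-EV.

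Ccn2, the connective tissue growth factor gene, had a normalised count of 9362 with Ocn-EV (9170 to 9557), 8905 with Prx1-EV (8733 to 9079.6) and 3563 with All-EV (3439 to 3689). The Ocn-EV and Prx1-EV values lay close together and both were well above All-EV. Ccn2 overlaps an antisense gene, Gm15270, which is not a row of the table. No source used here states if counting used strand, so reads of this pair cannot be told apart.

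Ccn1, which encodes a matricellular protein that acts on adhesion and migration through integrins, stood at 2705 with Ocn-EV (2602 to 2810), 2442 with Prx1-EV (2352 to 2534) and 902 with All-EV (840.4 to 967). Its pattern over the 3 libraries was like that of Ccn2.

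Ccn4, a Wnt-induced gene of osteoblast precursors, stood at 257 with Ocn-EV (226 to 291), 174 with Prx1-EV (151 to 200.4) and 77.0 with All-EV (59.8 to 97.6). Here the Ocn-EV and Prx1-EV intervals were apart as well.

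Ccn5 differed most among the libraries, at 452 with Ocn-EV (411 to 497), 126 with Prx1-EV (106 to 148) and 22.6 with All-EV (13.8 to 34.96). No interval overlapped another.

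Ccn3, the nephroblastoma overexpressed gene, had 11 reads with Ocn-EV, 5 with Prx1-EV and 1 with All-EV. Its level was 11.4 with Ocn-EV (5.69 to 20.4), 4.36 with Prx1-EV (1.42 to 10.2) and 1.13 with All-EV (0.0287 to 6.31). Every interval overlapped every other.

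**Figure D1:**
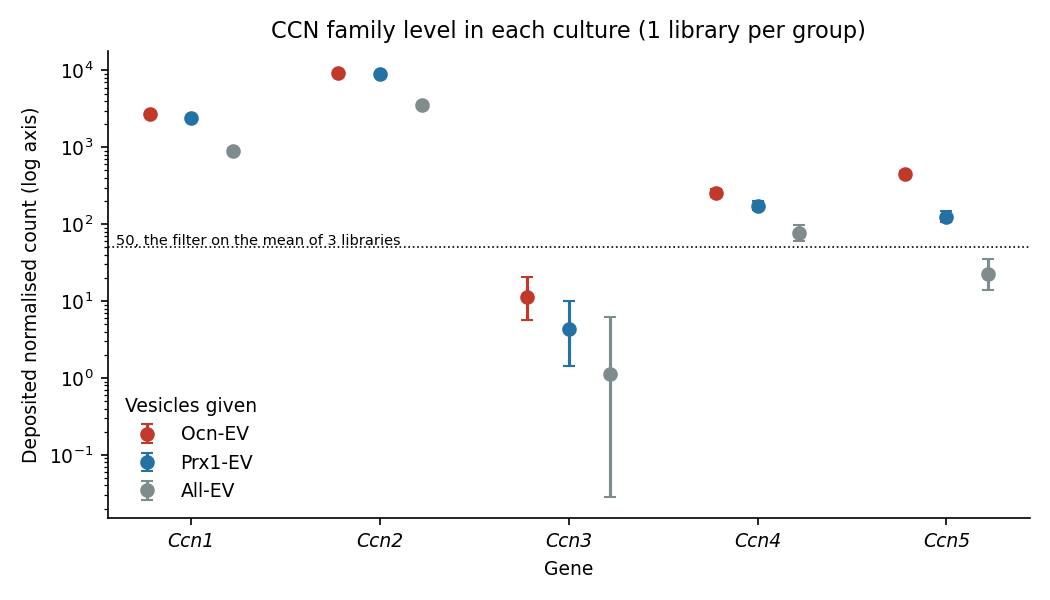
Deposited normalised count of each CCN gene on a log axis, with 1 point per culture (Ocn-EV, Prx1-EV and All-EV from left to right) and bars for the 95% counting interval. Ccn2 lies between 3563 and 9362, while Ccn5 spans 22.6 with All-EV to 452 with Ocn-EV and Ccn3 stays below the dotted line at 50.

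Per kilobase of the coding transcript, the order of levels with Ocn-EV was Ccn2 (3904), Ccn1 (1339.5), Ccn5 (263), Ccn4 (50.4) and Ccn3 (3.97). The same order held with Prx1-EV, at 3714 (Ccn2), 1209 (Ccn1), 73.1 (Ccn5), 34.2 (Ccn4) and 1.52 (Ccn3) normalised counts per kilobase, with neighbours apart beyond counting error. With All-EV, Ccn2 (1486) and Ccn1 (447) were again first and Ccn3 (0.394) last. Ccn4 at 15.1 (11.7 to 19.1) and Ccn5 at 13.2 (8.04 to 20.3) per kilobase did not differ there beyond counting error. The place of Ccn5 depends on the length used. Per kilobase of coding length, an alternative added after seeing the data, Ccn5 was 2.57 times Ccn4 with Ocn-EV, 1.05 times with Prx1-EV and 0.43 times with All-EV, and without length it was 1.76 times with Ocn-EV, 0.72 times with Prx1-EV and 0.29 times with All-EV. Ccn5 was thus above Ccn4 under each of these measures with Ocn-EV alone.

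The share of each gene within the family does not depend on how the libraries are scaled. Ccn2 held 73.2% (72.4 to 74.0) of CCN reads with Ocn-EV, 76.4% (75.7 to 77.1) with Prx1-EV and 78.0% (76.7 to 79.3) with All-EV. Ccn1 held 21.1% (20.4 to 21.9) with Ocn-EV, 20.96% (20.3 to 21.7) with Prx1-EV and 19.8% (18.5 to 21.0) with All-EV. Ccn5 held 3.54% (3.22 to 3.88) with Ocn-EV, 1.08% (0.910 to 1.27) with Prx1-EV and 0.496% (0.303 to 0.765) with All-EV. Ccn4 stayed between 1.497% (1.30 to 1.72) with Prx1-EV and 2.01% (1.77 to 2.27) with Ocn-EV. In percentage points the share of Ccn2 differed most, and in relative terms among the 4 genes at the filter (a mean of at least 50) that of Ccn5.

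Cultures given Ocn-EV were set against the control culture. Ratios are log2((a + 1)/(b + 1)) of normalised counts, where the added 1 keeps zeros defined and pulls low genes toward 0. Among genes with a mean of at least 50 over the 3 libraries (11067, with 4 of the 5 members), 6.27% had a value at least 2-fold higher with Ocn-EV than with All-EV and 4.2% one at least 2-fold lower. Ccn1, Ccn2, Ccn4 and Ccn5 were each at least 2-fold higher on the deposited scale, and Ccn5 alone was when scaled to stromal markers. At 1.5-fold the same 4 members counted as higher, against 13.8% of genes higher and 13.6% lower. Ccn5 passed the filter through Ocn-EV and Prx1-EV alone, since its All-EV value is under 50, so its place in this count was partly set by the filter.

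Ccn5 was 20.0-fold higher with Ocn-EV than with All-EV (log2 4.26, 3.68 to 5.05), rank 7 from the top among the 11067 genes. Ccn4 was 3.34-fold higher (log2 1.73, 1.35 to 2.15, rank 211). Ccn1 was 3.00-fold higher (log2 1.58, 1.47 to 1.70, rank 265) and Ccn2 was 2.63-fold higher (log2 1.39, 1.34 to 1.45, rank 367). Ccn3, below the filter, had a ratio of 10.1 from 11 reads against 1, with an interval of 1.46 to 433.

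Prx1-EV was set against the same All-EV library, so both comparisons share their control. Of the 11067 genes, 5.12% were at least 2-fold higher and 3.66% at least 2-fold lower with Prx1-EV than with All-EV. Ccn1, Ccn2, Ccn4 and Ccn5 were again at least 2-fold higher on the deposited scale, and Ccn5 alone when scaled to stromal markers. At 1.5-fold, 12.7% of genes were higher and 12.7% lower, and the same 4 members were higher. Ccn5 was 5.55-fold higher (log2 2.42, 1.79 to 3.23, rank 48). Ccn1 was 2.71-fold higher (log2 1.44, 1.32 to 1.55, rank 237), Ccn2 was higher by log2 1.32 (1.26 to 1.38, rank 295) and Ccn4 2.27-fold (log2 1.17, 0.78 to 1.60, rank 404). Ccn3, with 5 reads against 1, had a ratio of 3.85 (0.431 to 182), so no difference was detectable at this depth.

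Ocn-EV and Prx1-EV cultures were more alike, with 0.325% of the 11067 genes at least 2-fold higher and 0.19% at least 2-fold lower with Ocn-EV. Ccn5 was 3.60-fold higher with Ocn-EV than with Prx1-EV (log2 1.84, 1.57 to 2.13), rank 4 of all genes tested. Ccn4 was 1.47-fold higher (log2 0.55, 0.28 to 0.83), past the 95th percentile of all genes (log2 0.43). At 1.5-fold, 2.24% of genes were higher and 1.3% lower, with Ccn5 inside that threshold and Ccn4 just outside it. Ccn1 (log2 0.15, 0.07 to 0.22) and Ccn2 (log2 0.07, 0.03 to 0.11) lay within the central range of all genes. Ccn3 had 11 reads against 5, a ratio of 2.61 (0.836 to 9.59).

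**Figure D2:**
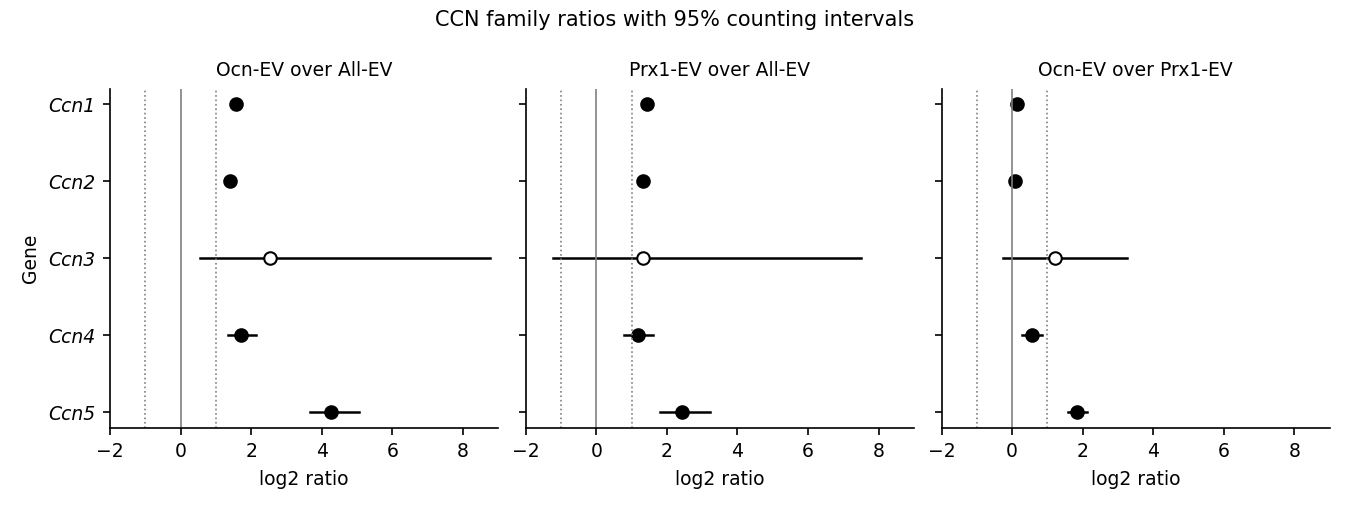
Log2 ratio of each CCN gene in the 3 comparisons, with lines for the 95% counting interval and dotted lines at 2-fold. The open circle marks Ccn3, which was below the filter, and Ccn5 lies farthest right among the filled points in each panel (log2 4.26 for Ocn-EV over All-EV, 2.42 for Prx1-EV over All-EV and 1.84 for Ocn-EV over Prx1-EV). Scaled to stromal markers, the point values of Ccn1 and Ccn2 turn below 0 for Ocn-EV over All-EV and for Ocn-EV over Prx1-EV. That of Ccn4 is −0.04 for Prx1-EV over All-EV, and no interval was calculated on that scale.

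**Figure D3:**
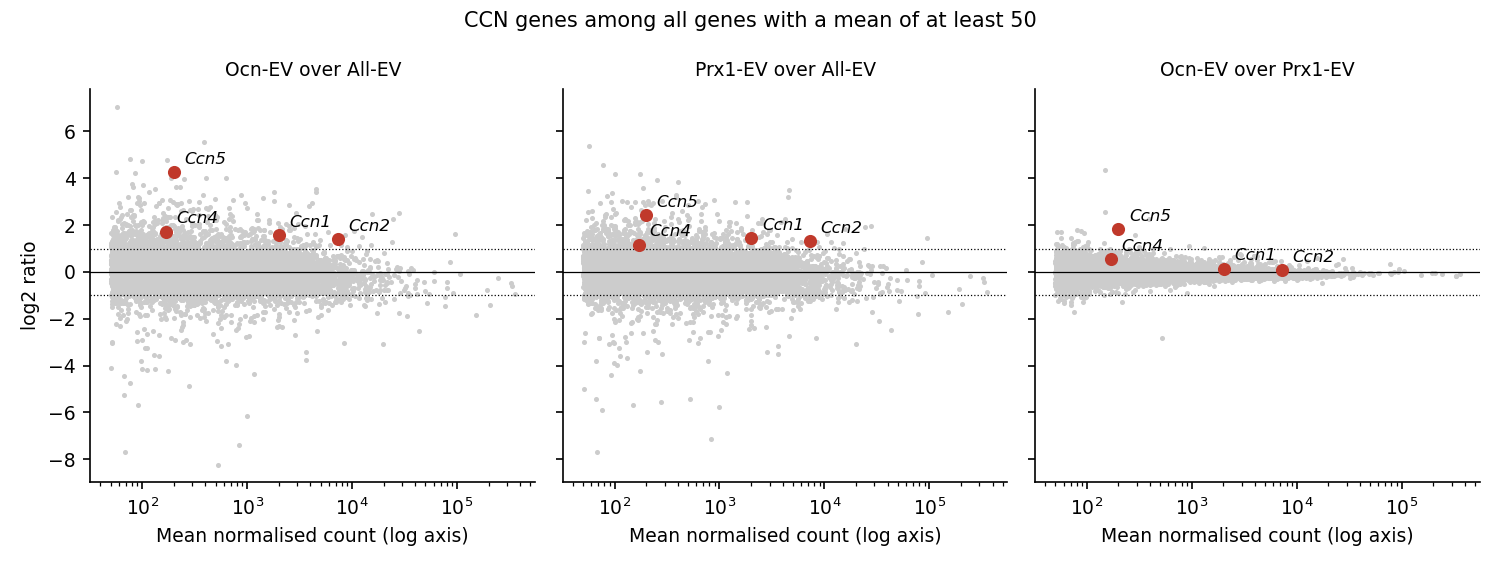
Log2 ratio against mean normalised count (log axis) for the 11067 genes with a mean of at least 50 (grey), with the 4 CCN genes at the filter in red and dotted lines at 2-fold. Ccn1 and Ccn2 lie above the bulk of genes in both comparisons with All-EV on the deposited scale. They lie near 0 between Ocn-EV and Prx1-EV, where Ccn5 stays at 1.84. Scaled to stromal markers, which shifts every gene alike, the point values of Ccn1 and Ccn2 with Ocn-EV and Ccn4 with Prx1-EV lie below 0. That of Ccn4 is −0.04, and no interval was calculated on that scale.

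Set against one another, which cancels library scaling, the members did not differ by one common factor. Relative to Ccn2, Ccn5 was 7.61-fold higher with Ocn-EV than with All-EV (log2 2.93, 2.28 to 3.66), 2.22-fold higher with Prx1-EV than with All-EV (log2 1.15, 0.47 to 1.91) and 3.43-fold higher with Ocn-EV than with Prx1-EV (log2 1.78, 1.498 to 2.06). Ccn1 and Ccn2 kept nearly the same ratio to each other. Ccn2 relative to Ccn1 had a log2 difference of −0.19 (−0.32 to −0.06) between Ocn-EV and All-EV and −0.12 (−0.24 to 0.01) between Prx1-EV and All-EV. Ccn4 relative to Ccn2 was at 0.34 (−0.05 to 0.76) with Ocn-EV against All-EV and at 0.49 (0.21 to 0.76) with Ocn-EV against Prx1-EV.

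Stromal transcripts as a whole also differed between the cultures. The 12 stromal markers took 0.533% of reads with Ocn-EV, 0.348% with Prx1-EV and 0.0835% with All-EV. Of these, Lum had 0 reads in each library, and Dcn had 3 reads with Ocn-EV, 3 with Prx1-EV and 23 with All-EV. Of the 8 stromal markers at the filter, 7 passed 2-fold higher for Ocn-EV, and 4 for Prx1-EV, over All-EV. Of all genes, 6.27% (Ocn-EV) and 5.12% (Prx1-EV) were at least 2-fold higher, and 4.2% (Ocn-EV) and 3.66% (Prx1-EV) lower. Macrophage markers were abundant in cultures labelled as stromal, with 12 of 12 at the filter, summing to 1.01% of reads with Ocn-EV, 0.852% with Prx1-EV and 1.34% with All-EV. That sum is led by Lyz2, the lysozyme gene, with 49971 reads with Ocn-EV, 46480 with Prx1-EV and 123980 with All-EV. The median log2 ratio of the 12 went the other way, at 0.62 (Ocn-EV over All-EV, 3 at least 2-fold higher and 2 lower) and 0.36 (Prx1-EV over All-EV, 0 higher and 2 lower). In bulk RNA, fewer cells of a type and less RNA per cell cannot be told apart, and the part of cell make-up in the CCN differences was not tested.

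CCN genes were therefore also read relative to stromal transcripts, by setting the libraries to the geometric mean of the 8 stromal markers at the filter. This put the median log2 ratio of the 11067 genes at −1.70 (Ocn-EV over All-EV) and −1.22 (Prx1-EV over All-EV). On that scale, against All-EV, Ccn1 stood at −0.11 with Ocn-EV and 0.22 with Prx1-EV, Ccn2 at −0.30 with Ocn-EV and 0.10 with Prx1-EV, and Ccn4 at 0.05 with Ocn-EV and −0.04 with Prx1-EV. These 3 genes thus lay within 0.30 log2 units of the stromal markers. The point values were negative for Ccn1 and Ccn2 with Ocn-EV and for Ccn4 with Prx1-EV. No interval was calculated on this scale, so the sign of those nearest 0 is not settled. Ccn5 remained at 2.60 with Ocn-EV and 1.24 with Prx1-EV, and at 1.37 for Ocn-EV over Prx1-EV, where Ccn1 (−0.325) and Ccn2 (−0.40) were negative and Ccn4 was at 0.08. TMM factors moved each ratio by 0.02 or less, and equal library totals raised them by 0.26 (Ocn-EV over All-EV) and 0.22 (Prx1-EV over All-EV).

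**Figure D4:**
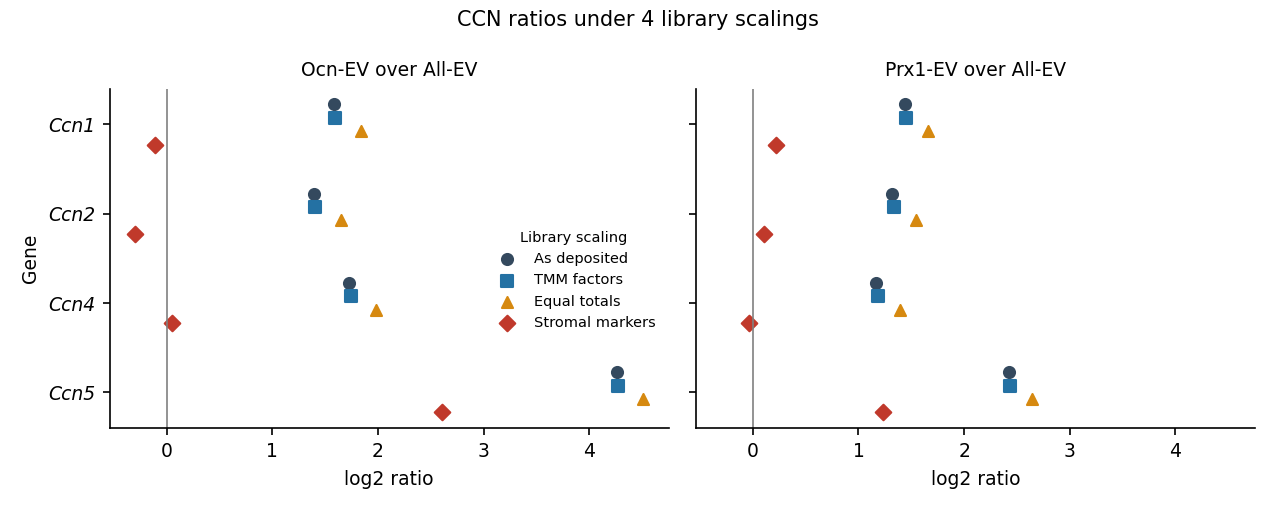
Log2 ratio of the 4 CCN genes at the filter under 4 library scalings, against All-EV. Scaling to stromal markers brings Ccn1, Ccn2 and Ccn4 to between −0.30 and 0.22, on either side of 0, and leaves Ccn5 at 2.60 with Ocn-EV and 1.24 with Prx1-EV.

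On the deposited scale the 4 osteoblast markers at the filter were highest with Ocn-EV and lowest with All-EV. That order was shared by each of the 5 CCN genes (Ccn3 on 11 reads or fewer) and by the 8 stromal markers at the filter. Of the 4, 2 passed 2-fold higher for Ocn-EV over Prx1-EV, beside 0.325% of all genes, and 3 passed 1.5-fold, beside 2.24%. Ibsp, the bone sialoprotein gene, stood at 948 with Ocn-EV, 195 with Prx1-EV and 19.2 with All-EV, and Sp7, the transcription factor of osteoblast commitment, at 179 with Ocn-EV, 50.6 with Prx1-EV and 13.6 with All-EV. Ibsp and Sp7 ranked 3 and 5 between Ocn-EV and Prx1-EV, on either side of Ccn5. Xist ranked 1, Eif3j2 2, Cx3cr1 6 and Trem1 7, so the genes ranked near Ccn5 were not osteoblast markers alone. Like Ccn5, Ibsp and Sp7 had All-EV values under 50, so their place among the tested genes was partly set by the filter. The 7 osteoblast markers summed to 0.0150% of reads with Ocn-EV, 0.00602% with Prx1-EV and 0.00224% with All-EV, with 4 at the filter. Bglap, the osteocalcin gene, had 4 reads with Ocn-EV, 0 with Prx1-EV and 0 with All-EV, and Runx2 stood at 289.9 with Ocn-EV, 254 with Prx1-EV and 244 with All-EV. Dmp1, a gene of late osteoblasts and osteocytes, had 19 reads with Ocn-EV, 17 with Prx1-EV and 0 with All-EV. The part of osteoblast markers in the Ccn5 difference was not tested. Smooth muscle markers, in contrast, had 0.187% of reads with Ocn-EV, 0.175% with Prx1-EV and 0.0580% with All-EV, a pattern nearer to Ccn1 and Ccn2.

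The genes most like each member were found by the Euclidean distance between pairs of log2 ratios (Ocn-EV over All-EV and Prx1-EV over All-EV), over 10978 genes and 3 libraries. Nearest to Ccn1 were Frmd4b (distance 0.02), Slit1 (0.02) and Apoe (0.03), and 94 genes lay within 0.25. Nearest to Ccn2 were Slc9a8 (0.01), B4galt2 (0.02) and Tmem132a (0.02), with 133 genes within 0.25. Nearest to Ccn4 were Xaf1 (0.04), Isg15 (0.05) and H2-DMa (0.07), with 60 within 0.25. Nearest to Ccn5 were Cd163 (0.51), Rspo2 (0.54) and Igfbp5 (0.64), with 0 genes within 0.25, a distance smaller than the counting error of the Ccn5 ratios. Cd163, the nearest to Ccn5, stood at 165 with Ocn-EV, 65.4 with Prx1-EV and 11.3 with All-EV. Rspo2 stood at 206 with Ocn-EV, 85.5 with Prx1-EV and 14.7 with All-EV. Of these neighbours, Cd163, Rspo2, Slit1, B4galt2 and H2-DMa had All-EV values under 50, so their place among the genes searched was partly set by the filter. The distance takes no account of counting error, and with All-EV Slit1 had 24 reads, H2-DMa 27 and B4galt2 38. A pair of ratios from 3 libraries is a coarse measure, and many genes share one.

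Partners, regulators and known targets of the family were taken from 10 lists of 108 genes, of which 85 were at the filter, and some genes stand on more than 1 list. Of the 85, 32 were at least 2-fold higher and 5 lower with Ocn-EV, and 29 higher and 4 lower with Prx1-EV, each against All-EV. That is 37.6% higher with Ocn-EV and 34.1% with Prx1-EV, beside 6.27% (Ocn-EV) and 5.12% (Prx1-EV) of the 11067 genes. The lists were chosen with earlier results of these data known, so this contrast may partly reflect that choice. Some of the 85, among them Tead2, Tead3, Igf2, Igfbp2, Nkd2 and Rbms3, had All-EV values under 50. Their place in the higher counts was thus partly set by the filter. List values are log2 ratios over All-EV on the deposited scale. Scaled to stromal markers, which shifts every gene alike, 4 were higher and 46 lower with Ocn-EV, and 5 higher and 27 lower with Prx1-EV. The lower share was 54.1% with Ocn-EV and 31.8% with Prx1-EV, beside 88.7% (Ocn-EV) and 67.4% (Prx1-EV) of the 11067 genes.

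Of 8 tested integrin subunits that bind CCN proteins, 0 were at least 2-fold higher in either comparison with All-EV, beside 6.27% (Ocn-EV) and 5.12% (Prx1-EV) of all genes, and 3 were lower with Ocn-EV and 2 with Prx1-EV, beside 4.2% (Ocn-EV) and 3.66% (Prx1-EV). The macrophage integrin pair was lower, Itgam at log2 −1.42 with Ocn-EV and −1.60 with Prx1-EV, and Itgb2 at −1.13 with Ocn-EV and −1.10 with Prx1-EV. Itgb3, a partner of Itgav in binding Ccn1 and Ccn2, stood at −1.05 with Ocn-EV and −0.83 with Prx1-EV, while Itga5 was at 0.69 with Ocn-EV and 0.87 with Prx1-EV. The median of the 8 was 0.16 with Ocn-EV and 0.21 with Prx1-EV, against −0.02 (Ocn-EV) and 0.00 (Prx1-EV) over the 11067 genes. Among 6 co-receptor genes, the perlecan gene Hspg2 was highest, at 1.36 with Ocn-EV and 0.83 with Prx1-EV. The others stayed within 2-fold, among them Lrp1 (Ocn-EV 0.43, Prx1-EV 0.43), Lrp6 (Ocn-EV 0.39, Prx1-EV 0.58) and Notch1 (Ocn-EV 0.32, Prx1-EV 0.46).

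Several growth factors and matrix proteins that CCN proteins bind were higher on the deposited scale. Of 8 tested, 5 passed 2-fold with Ocn-EV and 4 with Prx1-EV, beside 6.27% (Ocn-EV) and 5.12% (Prx1-EV) of all genes. The number lower by that amount was 0, and the medians were 1.72 (Ocn-EV) and 1.35 (Prx1-EV). Tgfb3 stood at log2 3.16 with Ocn-EV and 2.98 with Prx1-EV, and Tgfb2 at 2.63 with Ocn-EV and 2.26 with Prx1-EV. The growth factor gene Igf2 was at 2.203 with Ocn-EV and 1.71 with Prx1-EV, and the decoy receptor gene Tnfrsf11b at 2.17 with Ocn-EV and 2.04 with Prx1-EV. Tgfb1, the isoform most often used to induce Ccn2, was at 0.18 with Ocn-EV and 0.17 with Prx1-EV.

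Of 14 tested transcriptional regulators, the 4 past 2-fold higher with Ocn-EV were Tead3 (log2 1.61), Tead1 (1.34), Yap1 (1.11) and Tead2 (1.06). With Prx1-EV the 4 past 2-fold were Tead3 (1.42), Yap1 (1.36), Tead1 (1.23) and Wwtr1, the TAZ gene (1.08). The number at least 2-fold lower was 0 in both. Of all genes, 6.27% (Ocn-EV) and 5.12% (Prx1-EV) were higher by that amount, and 4.2% (Ocn-EV) and 3.66% (Prx1-EV) lower. Tead2 and Tead3 had All-EV values under 50, so their place in these counts was partly set by the filter. The medians of the 14 were 0.30 (Ocn-EV) and 0.28 (Prx1-EV). Srf, the serum response factor gene, stood at −0.60 with Ocn-EV and −0.57 with Prx1-EV, and its cofactor genes Mrtfa at 0.67 with Ocn-EV and 0.67 with Prx1-EV and Mrtfb at 0.25 with Ocn-EV and 0.29 with Prx1-EV. Of the others, Smad3 stood at 0.32 with Ocn-EV and 0.07 with Prx1-EV, Ctnnb1 at −0.33 with Ocn-EV and −0.19 with Prx1-EV, and Smad4 at −0.12 with Ocn-EV and 0.03 with Prx1-EV.

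Among 19 tested YAP and TAZ targets other than CCN genes, 6 were at least 2-fold higher and 1 lower with Ocn-EV (median 0.83). This stood beside 6.27% higher and 4.2% lower of all genes. With Prx1-EV, 7 were higher and 1 lower (median 0.67), beside 5.12% higher and 3.66% lower of all genes. Ccdc80, a matrix protein gene, stood highest, at log2 3.41 with Ocn-EV and 2.97 with Prx1-EV, followed by Tgfb2. Ajuba, a LIM-domain regulator of Hippo signalling, was at 1.59 with Ocn-EV and 1.57 with Prx1-EV, and Rbms3 at 1.49 with Ocn-EV and 1.17 with Prx1-EV. The lower gene was Gadd45a, a stress-response gene, at −1.30 with Ocn-EV and −1.13 with Prx1-EV.

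Targets of SRF and its cofactors, the MRTFs, had 7 of 10 members at least 2-fold higher in each comparison with All-EV (medians 1.51 for Ocn-EV and 1.34 for Prx1-EV). The shares of all genes, also for the TGF-beta counts below, were 6.27% (Ocn-EV) and 5.12% (Prx1-EV). The contractile genes lay close to Ccn1 and Ccn2, with Myl9 at 1.79 (Ocn-EV) and 1.45 (Prx1-EV), Actg2 at 1.77 (Ocn-EV) and 1.73 (Prx1-EV), Acta2 at 1.74 (Ocn-EV) and 1.63 (Prx1-EV), and Cnn1 at 1.74 (Ocn-EV) and 1.67 (Prx1-EV). TGF-beta targets were less uniform, with 3 of 8 past 2-fold higher with Ocn-EV (median 0.56) and 2 of 8 with Prx1-EV (median 0.14). Postn, the periostin gene, stood at 2.10 with Ocn-EV and 1.45 with Prx1-EV, and Tgfbi at −0.63 with Ocn-EV and −0.97 with Prx1-EV. Of 12 Wnt targets 2 were at the filter, Nkd2 (Ocn-EV 2.64, Prx1-EV 2.17) and Znrf3 (Ocn-EV −0.03, Prx1-EV −0.27), too few to set beside Ccn4 and Ccn5.

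Genes that share the IGFBP module with the family had 3 of 8 members past 2-fold higher in each comparison (medians 0.75 for Ocn-EV and 0.60 for Prx1-EV). The shares of all genes, also for the matricellular counts below, were 6.27% (Ocn-EV) and 5.12% (Prx1-EV). Igfbp5 stood at a normalised count of 1195 with Ocn-EV, 600.2 with Prx1-EV and 73.6 with All-EV. Igfbp2 (log2 3.17 with Ocn-EV, 2.98 with Prx1-EV) and Igfbp4 (1.88 with Ocn-EV, 1.61 with Prx1-EV) were also higher, and Igfbp3 was at −0.06 with Ocn-EV and −0.55 with Prx1-EV. Of 8 other matricellular genes, 5 passed 2-fold higher for Ocn-EV and 3 for Prx1-EV (medians 1.39 for Ocn-EV and 0.65 for Prx1-EV), among them Thbs1 (Ocn-EV 2.26, Prx1-EV 1.90) and Sparc (Ocn-EV 1.72, Prx1-EV 1.29). Spp1, the osteopontin gene, was the 1 lower member, at −2.52 with Ocn-EV and −2.48 with Prx1-EV. Thbs2 stood at 1599 with Ocn-EV, 743 with Prx1-EV and 493 with All-EV. It was the 1 gene of the 85 at least 2-fold higher with Ocn-EV than with Prx1-EV, beside 0.325% of all genes.

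**Figure D5:**
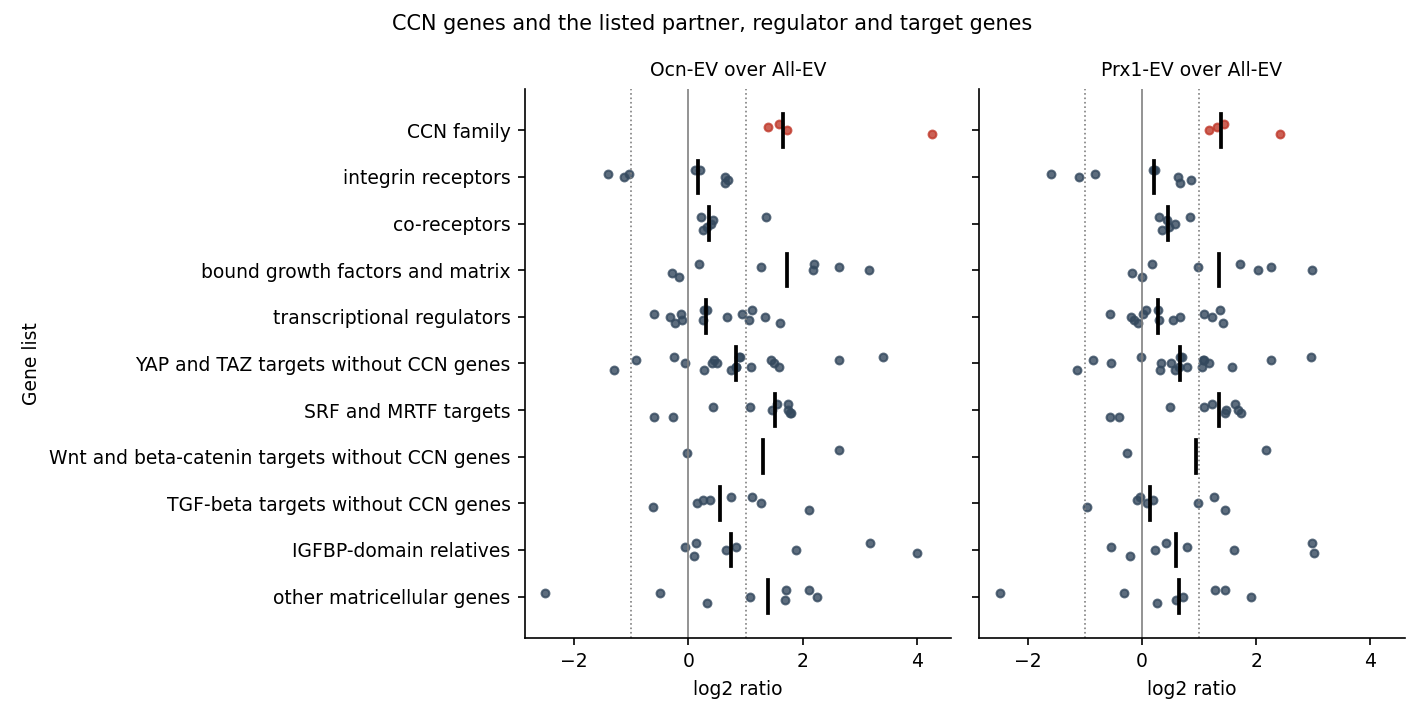
Log2 ratio of each tested gene (points) with the list median (black bars) for the CCN family and 10 lists, against All-EV on the deposited scale, with dotted lines at 2-fold. The 4 CCN genes at the filter lie to the right of 1, as do most SRF and MRTF targets (medians 1.51 for Ocn-EV and 1.34 for Prx1-EV). Integrin receptors, in contrast, have medians of 0.16 for Ocn-EV and 0.21 for Prx1-EV. Scaled to stromal markers, the point values of Ccn1 and Ccn2 with Ocn-EV and Ccn4 with Prx1-EV lie below 0. That of Ccn4 is −0.04, and no interval was calculated on that scale.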

How the data were processed

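Messenger RNA of 3 cultures was sequenced, 1 library per group, from 100 ng of RNA, per the labels' protocols. The deposited values are a signal per gene, normalised by the authors. The submitters' processing notes list DESeq2 2.11.40.8, featureCounts 2.0.3, HISAT2 2.2.1, Trimmomatic 0.38.1, FastQC 0.74 and mm10, with no settings. At a tolerance of 1e-06, 100% of values were whole multiples of 1 read (worth 1.04 in Ocn-EV, 0.872 in Prx1-EV and 1.13 in All-EV), and division gave the reads. Symbols matched 25275 of 27179 identifiers (RefSeq GRCm38.p6).

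A mean of at least 50, a pseudocount of 1 and a 2-fold threshold were used. Intervals were exact (Clopper-Pearson for ratios and shares, Poisson for levels, conditional odds ratios between members). With 1 library per group there is no test of conditions. An exact binomial test of those reads (Benjamini-Hochberg, 0.05), added after the data were seen, compares libraries, not conditions. It called 7177 genes for Ocn-EV over All-EV, 7119 for Prx1-EV over All-EV and 2872 for Ocn-EV over Prx1-EV. TMM factors came from edgeR 4.0.16, and other steps used Python 3.11.15 and scipy 1.17.1. The calculations were tested on simulated data.

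The members and lists were chosen with earlier results of these data known. Named list genes were up to 4 per list farthest from 0, plus 2-fold members opposite to the list median; for each member at the filter the 3 nearest genes were named. Lrp1, Lrp6, Notch1, Tgfb1, Ctnnb1, Smad3, Smad4, Mrtfa, Mrtfb, Igfbp3, Tpm1, Vcl, Xist and Ddx3y were added after values were seen. So were the ranks of Ibsp, Sp7, Xist, Eif3j2, Cx3cr1 and Trem1 and the values of Cd163. One list gene that the rule names is not reported here. The depth limits Ccn3, at 11 reads or fewer.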

Additional observations from a re-analysis of the deposited data

How the results depend on the processing

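No paired analysis was possible because each group has 1 library, and for the same reason no library could be left out. The 15 member ratios stayed within their counting intervals with pseudocounts of 0.5 and 5 and with TMM factors, and 4 moved beyond them with equal totals. Scaling to stromal markers put the point values of Ccn1 (−0.11) and Ccn2 (−0.30) with Ocn-EV and Ccn4 (−0.037) with Prx1-EV below All-EV. No interval was calculated on that scale. The median of the 4 members became −0.030 (Ocn-EV over All-EV), 0.16 (Prx1-EV over All-EV) and −0.12 (Ocn-EV over Prx1-EV), with 1 member 2-fold higher in each comparison with All-EV. That change follows from the scaling, since stromal markers were themselves higher. With no filter 2 members were higher with Ocn-EV than with Prx1-EV. Without length, Ccn5 over Ccn4 with Prx1-EV was 0.72. Coding length was an alternative added after seeing the data.

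Of the 85 list genes, stromal scaling gave 4 higher and 46 lower (Ocn-EV over All-EV), 5 higher and 27 lower (Prx1-EV over All-EV), and 0 higher and 1 lower (Ocn-EV over Prx1-EV). Equal totals gave 3 lower (Ocn-EV over All-EV), 2 lower (Prx1-EV over All-EV) and 2 higher (Ocn-EV over Prx1-EV). At 1.5-fold there were 8 lower (Ocn-EV over All-EV), 7 lower (Prx1-EV over All-EV), and 4 higher and 1 lower (Ocn-EV over Prx1-EV). The shares of all genes, in the same order, were 13.6% lower, 12.7% lower, and 2.24% higher and 1.3% lower. Other filters change how many of the 108 list genes are tested, so the next counts are not out of 85. A mean of at least 200 left 19 higher (Prx1-EV over All-EV), and a mean of at least 10 gave 2 lower (Ocn-EV over Prx1-EV). No filter gave 7 lower (Prx1-EV over All-EV) and 3 higher and 2 lower (Ocn-EV over Prx1-EV). Counts over all genes under these filters are given below.

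Over all genes, equal totals gave 1113 higher and 248 lower (Ocn-EV over All-EV) and 908 higher and 232 lower (Prx1-EV over All-EV), so the higher share of 2-fold genes was 81.8% (Ocn-EV) and 79.65% (Prx1-EV), against 59.9% (Ocn-EV) and 58.3% (Prx1-EV) as deposited. Stromal scaling gave 61 higher and 9811 lower (Ocn-EV over All-EV), 65 and 7464 (Prx1-EV over All-EV), and 10 and 187 (Ocn-EV over Prx1-EV). A mean of at least 10 gave 1168 and 726, 978 and 717, and 280 and 149 in the same order. No filter gave 2764 and 2052, 2010 and 2042, and 1698 and 971. A mean of at least 200 gave 356 higher (Ocn-EV over All-EV), 304 higher (Prx1-EV over All-EV), and 6 higher and 2 lower (Ocn-EV over Prx1-EV). Depth limits Ccn3, whose reads allow no ratio narrower than its interval.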

Other observations

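Ccn6, the remaining gene of the family and not among the 5 above, had 8 reads with Ocn-EV, 11 with Prx1-EV and 4 with All-EV. Its log2 ratio was 0.75 (−1.03 to 3.05) for Ocn-EV over All-EV and 0.94 (−0.67 to 3.19) for Prx1-EV over All-EV, so no difference was detectable at this depth.

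Markers of other cell types moved in several ways. Megakaryocyte and platelet markers took 0.0125% of reads with Ocn-EV, 0.0108% with Prx1-EV and 0.0604% with All-EV, led by the platelet factor gene Pf4 at 1817 with Ocn-EV, 1577 with Prx1-EV and 10461 with All-EV. Chondrocyte markers took 0.0482% with Ocn-EV, 0.03998% with Prx1-EV and 0.00399% with All-EV. Nearly all of that was Col2a1, at 7012 with Ocn-EV, 5950.4 with Prx1-EV and 651 with All-EV, while Sox9 stood at 24.9 with Ocn-EV, 27.9 with Prx1-EV and 47.5 with All-EV. Endothelial markers differed less, at 0.0123% with Ocn-EV, 0.0142% with Prx1-EV and 0.0106% with All-EV. Adipocyte markers took 0.0748% with Ocn-EV, 0.0917% with Prx1-EV and 0.0622% with All-EV. Most of that was Lpl, with 9034 reads with Ocn-EV, 13525 with Prx1-EV and 7767 with All-EV, while Adipoq had 0 reads in each library. Neutrophil markers took 0.000105% with Ocn-EV, 4.63e-05% with Prx1-EV and 0.000341% with All-EV.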
